A study of Equus caballus with 21 samples.

Results

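The comparison described here set the luminal epithelium of the horse uterus against its glandular epithelium on day 12 of pregnancy, within the same biopsies. It took in 8 of the 21 libraries of the series, 1 luminal and 1 glandular library from each of 4 mares labelled B, C, M and U, and every pregnant epithelial library of these mares was used. Differences are luminal minus glandular, with the mare as a block. The animals were healthy cycling warmblood mares. Ovulation was induced in all of them with human chorionic gonadotropin, and those assigned to a pregnancy cycle were inseminated with fresh semen that had been cooled. Prostaglandin F2 alpha was given on day 12 to end the cycle, and its order relative to the biopsy is not stated. Both epithelia were cut by laser capture from stained frozen sections of 1 biopsy, so each library holds a captured area and not sorted cells. RNA was amplified with a kit made for single cells, and some libraries that are not named received further amplification. The cyclic counterpart used for comparison is 8 libraries of the same compartments under the same 4 letters, taken on day 12 after ovulation without insemination.

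The luminal epithelium is the sheet that lines the uterine cavity, and it is the surface that the mobile horse conceptus touches while it is still free in the uterus. The glands are tubes that run down into the stroma and open on that surface. Gland cells secrete the mixture of proteins, lipids, sugars and ions known as histotroph, which feeds the conceptus before a placenta forms. Uterocalin, a lipocalin encoded by P19, is a well known protein of horse histotroph. The luminal sheet is known for ion and calcium transport, for ciliated cells among its secretory cells, and for its contact with immune cells.

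The luminal libraries were shallower. Total counts ran from 136259 to 440188 in luminal and from 486316 to 1467510 in glandular libraries, and the luminal total was the lower of the pair in 4 of 4 mares (exact sign-flip test, two-sided, p = 0.125, the smallest that 4 pairs allow). Luminal libraries detected 4648 to 7137 genes and glandular ones 6555 to 11368 (exact sign-flip p = 0.25). The ribosomal RNA gene RN18S made up 34.9%, 11.4%, 0.452% and 21.05% of the luminal counts in the mare order B, C, M, U. In the glandular libraries it made up 34.7%, 16.3%, 48.8% and 35.3%. The luminal library of mare M stood apart in 3 ways, with the lowest total, the lowest RN18S share and the fewest genes. The shares averaged 16.9% ± 14.6 and 33.8% ± 13.4 (SD, n = 4; exact sign-flip p = 0.25). All 3 measures had a Benjamini-Hochberg adjusted p of 0.25.

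The epithelial label was checked against marker genes, given as CPM (counts scaled to a common library size), here of the counts without ribosomal RNA genes. All 12 epithelial identity genes were detected, and their summed level was 2659 to 5315 CPM in luminal and 2408 to 3611 CPM in glandular libraries, against 164 and 401 CPM in the 2 pregnant stromal libraries, of mares U and M. EPCAM, an adhesion molecule of epithelial cells, was present in all 8 libraries. Markers of other cells were not absent. Stromal fibroblast markers (23 of 23 detected) summed to 2815 to 7785 CPM in luminal and 864 to 1504 CPM in glandular libraries, against 13114 and 17393 CPM in stroma, so every luminal library lay above every glandular one. The stromal libraries also held transcripts that are high in gland. P19 stood at 7528 CPM in the stroma of mare M and 1075 CPM in that of mare U. The glandular libraries of mares M and U had 19960 and 45555 CPM of it, and the luminal ones 479 and 1754 CPM. Markers of T and NK cells (18 of 22 detected) summed to 112 to 987 CPM in luminal and 23.6 to 53.5 CPM in glandular libraries, again without overlap. For macrophages and dendritic cells (17 of 19 detected) the sums overlapped, at 115 to 1857 and 86.1 to 353 CPM. They overlapped as well for smooth muscle and pericytes (41.9 to 767 and 52.3 to 247 CPM), endothelium (36.9 to 499 and 9.23 to 190.4 CPM) and B and plasma cells (0 to 157 and 0 to 477 CPM). Granulocyte and mast cell markers (4 of 12 detected) summed to 0 to 3.49 CPM in luminal and 6.3 to 76.9 CPM in glandular libraries. These sums were low and did not overlap, with the glandular libraries higher. The luminal sums lay at the counting floor, since 1 count, as of PTPRC, is 3.49 CPM in the luminal library of mare B. Of the 14 trophoblast markers 5 had a count, with sums of 21.03 to 361 and 61.5 to 391 CPM, and the 8 erythrocyte markers had none. Few of these markers passed the filter for the test, and none but COL1A1 of the fibroblast list and FOXJ1 and DNAH5 of the ciliated cell list was called (3.26% of all tested genes were). RGS5 of pericytes had a log2 fold change (luminal minus glandular, ± SE) of 3.61 ± 2.02, adjusted p = 0.487, EMCN of endothelium -4.86 ± 2.93, adjusted p = 0.54, CTSS of macrophages 2.42 ± 1.22, adjusted p = 0.395, JCHAIN of plasma cells 0.25 ± 2.59, adjusted p = 0.988 and KRT18, listed for trophoblast but made by epithelia too, -0.2 ± 1.5, adjusted p = 0.982. In captured tissue, fewer cells of a type and less RNA per cell cannot be told apart.

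**Figure D1:**
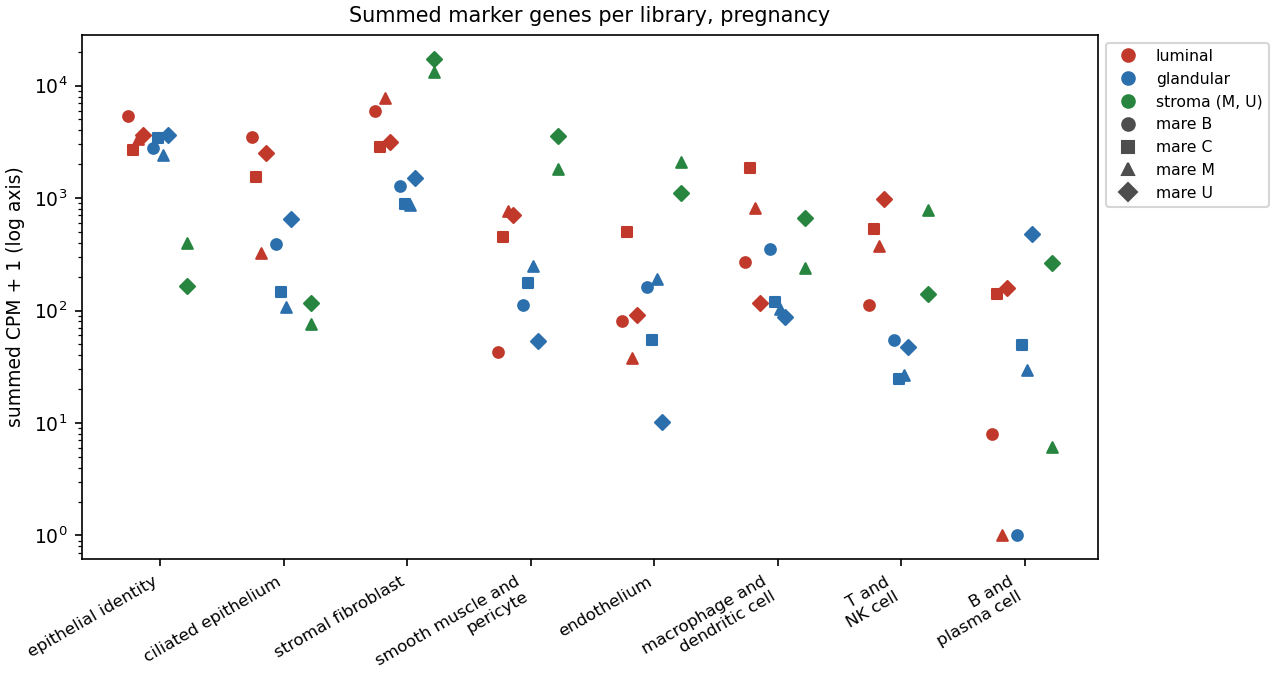
Summed level of marker genes per library (CPM without ribosomal RNA genes, plus 1, log axis) for pregnant luminal (red), glandular (blue) and stromal (green, mares M and U) libraries, with the mare as the symbol. Epithelial identity is alike in both epithelia and low in stroma, while the stromal fibroblast sums of luminal libraries (2815 to 7785 CPM) lie between those of glandular and stromal libraries.

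Of 3988 genes that passed the filter on low counts, 130 (3.26%) differed between the 2 epithelia at an adjusted p under 0.05 (edgeR's quasi-likelihood F-test, p-values adjusted by the Benjamini-Hochberg method). In the luminal epithelium 61 (1.53%) were higher and 69 (1.73%) lower, and 494 genes had an unadjusted p under 0.05. The direction was the same in 4 of 4 mares for 128 of the 130, the exceptions being IER3 and SLC2A1. The luminal and glandular values did not overlap for 116 of them, against 489 (12.3%) of all genes tested. Only large differences passed: the smallest was 2.50 on the log2 scale and the median size 5.28, also with the 6 genes that had no count in a group set at the bound their floor gives. The median log2 fold change of all tested genes was -0.57 after TMM scaling, which is the level to read the values against, and 1533 estimates were positive and 2455 negative. It moved to 0.06 without the mare block and to -0.46 with relative log expression (RLE) factors. RLE factors turned the split to 71 higher and 63 lower. The count depended strongly on the tool. DESeq2 called 615 genes (230 higher and 385 lower), all 130 among them, whereas limma-voom called 7, of which 5 were among the 130. It also depended on single mares, with 39 genes left without mare C, 69 without mare B, 69 without mare U and 122 without mare M. After thinning the deeper library of each pair to the depth of the other, 128 genes passed, of which 122 were the same. Of the 56 calls named below by rule, limma-voom kept 3 (CD74, P19 and STC1). A gene without a lost call noted below was therefore not called by every tool. The counts of listed genes given below cover the members that passed the filter. A gene can pass through the group where it is high, so these are not counts over whole lists. Each count of called list members stands against the 1.53% of all tested genes that rose and the 1.73% that fell. The lists were chosen with earlier results of these data known, so a count above these shares is no test of a list.

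**Figure D2:**
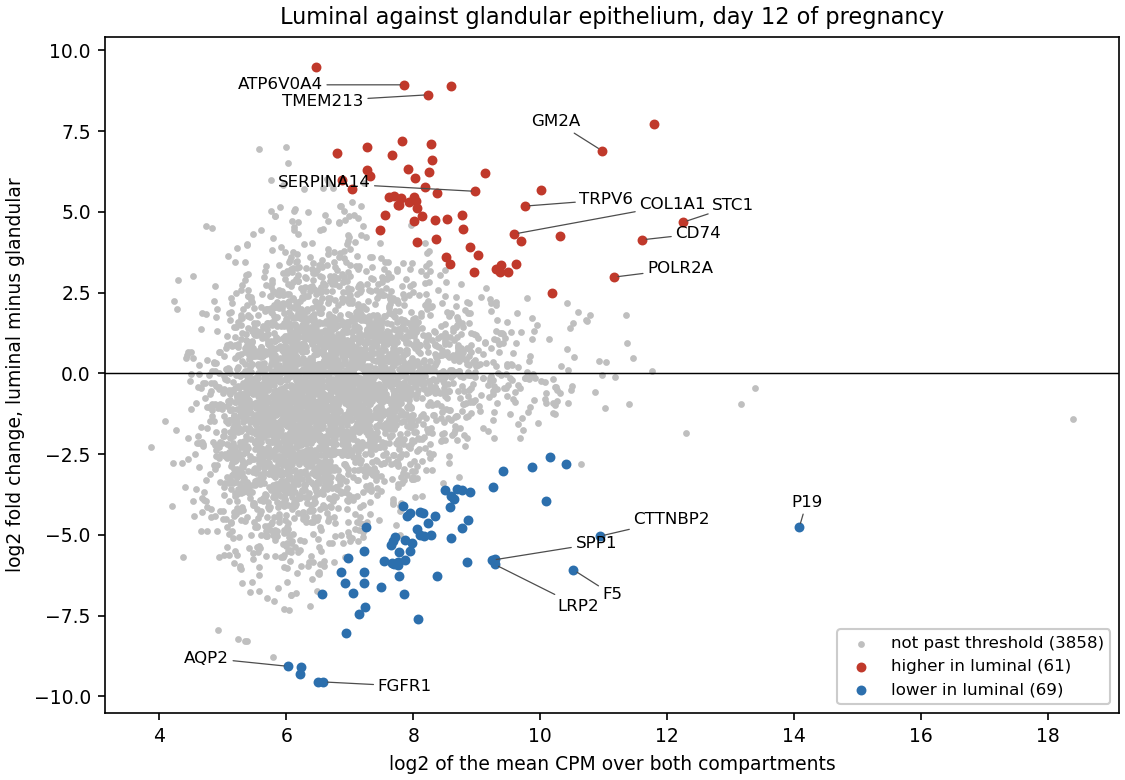
Each point is 1 of 3988 tested genes, placed by the log2 of its mean CPM over both epithelia (x) and its log2 fold change, luminal minus glandular (y), with called genes in colour. The 61 higher (red) and 69 lower (blue) genes all have a fitted size of at least 2.50 after rounding, and the fitted values of the 6 called genes with a group at 0 depend on the prior count.

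Calcium genes were among the luminal calls with the smallest p. Levels are now CPM of the TMM-scaled library size in the mare order B, C, M, U, and values with ± are log2 fold changes with their SE. STC1 encodes stanniocalcin 1, a secreted hormone of calcium and phosphate balance. It stood at 13664, 12131, 4905 and 6805 CPM in the luminal libraries and at 692, 292, 231 and 273 CPM in the glandular ones. All 4 luminal libraries lay far above all 4 glandular ones. The log2 fold change was 4.68 ± 0.71, adjusted p = 4.03e-08. TRPV6, the channel through which epithelia take up calcium, stood at 2861, 1057, 244 and 2529 CPM in luminal and 137, 8.96, 6.65 and 111 CPM in glandular libraries (5.18 ± 0.88, adjusted p = 1.49e-06). Mares B and U had the higher values in both compartments, and the groups did not overlap. ITPR1, named by its rank and not a member of the calcium list, encodes the receptor that releases calcium from the endoplasmic reticulum. It was at 2644, 759, 1207 and 3499 CPM against 15.5, 44.8, 37.7 and 42.3 CPM (5.66 ± 0.89, adjusted p = 9.25e-08). ATP2A3, a calcium pump of the same organelle that was also named by rank, went the other way (-5.92 ± 1.38, adjusted p = 0.00175; call lost without mare C, adjusted p = 0.0504). Of 13 listed calcium handling genes 7 were tested. STC1 and TRPV6 rose (1.53% of all tested genes did), and 6 of 7 estimates were positive, with a median of 3.99. Among the uncalled members, the calcium pump ATP2B4 had 5.31 ± 1.76, adjusted p = 0.069 and the calcium buffer S100G (calbindin-D9k) 3.99 ± 1.74, adjusted p = 0.253. In the list of genes known from luminal epithelium 6 of 25 were tested and the called members were again STC1 and TRPV6 (median 2.95). MSX1, a homeobox factor, had -2.8 ± 1.17, adjusted p = 0.224, IHH, the signal Indian hedgehog, -3.2 ± 2.32, adjusted p = 0.64 and MUC1, a mucin of the apical surface, 5.19 ± 1.87, adjusted p = 0.108.

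Of the genes listed with the vacuolar proton pump 3 rose in the luminal epithelium, and 2 of those were nearly absent from the glandular counts. The vacuolar proton pump moves protons across membranes and is built from a V1 part in the cytosol and a V0 part in the membrane. ATP6V0A4, a V0 subunit best known from acid-secreting cells of the kidney, stood at 776, 418, 122 and 539 CPM in luminal libraries and at 2.58, 0.597, 0 and 0 CPM in glandular ones, where it had 2 counts in all. Its ratio of pooled CPM was 725 (95% counting interval 199.9 to 6001), with a fitted fold change of 8.93 ± 1.57, adjusted p = 3.56e-06. TMEM213, a small membrane protein listed with the pump, stood at 685, 412, 801 and 504 CPM against 5.16, 0, 0 and 2.65 CPM. It had 3 glandular counts, a ratio of 543 (95% counting interval 185 to 2642) and a fitted fold change of 8.62 ± 1.38, adjusted p = 1.94e-07. ATP6V1C2, a V1 subunit, was at 1250.5, 1779, 894 and 1619 CPM against 333, 95.6, 275 and 21.2 CPM (3.4 ± 0.88, adjusted p = 0.00626), a call that was lost without mare C or U (adjusted p 0.221 to 0.283). The other 9 of the 12 tested pump genes (23 listed) did not pass, and 6 of 12 had a negative estimate, with a median of 0.27. ATP6AP2 and ATP6AP1, the accessory subunits and most abundant uncalled members, had 1.8 ± 1.48, adjusted p = 0.698 and 0.8 ± 1.86, adjusted p = 0.926.

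Several luminal genes act on lipids or are secreted. GM2A encodes a lysosomal activator protein that lifts gangliosides out of membranes for breakdown. It was at 8425, 632, 697 and 6054 CPM in luminal libraries and 132, 1.19, 2.22 and 124 CPM in glandular ones (6.9 ± 0.87, adjusted p = 3.6e-12), again with mares B and U higher in both compartments. LIPG, a phospholipase of the lipase family, was at 487, 291, 389 and 1309 CPM against 5.16, 1.19, 2.22 and 10.6 CPM (7.09 ± 1.24, adjusted p = 3.56e-06). SERPINA14, the uterine serpin, is known as a progesterone-dependent secretion of sheep and cattle glands. Here it was at 1124, 402, 1439.6 and 999 CPM in luminal and 25.8, 17.9, 15.5 and 13.2 CPM in glandular libraries (5.64 ± 1.01, adjusted p = 4.94e-06). RAB3B, a small GTPase of regulated exocytosis, was at 399.5, 132, 1149 and 238 against 5.16, 2.99, 6.65 and 2.65 CPM (6.31 ± 1.33, adjusted p = 0.000271; call lost without mare M, adjusted p = 0.0802). PRSS23, a secreted serine protease, had 7.02 ± 1.68, adjusted p = 0.00252 (307 ± 311 against 2.47 ± 3.01 CPM). PIGR, which carries antibodies across epithelia, had 4.91 ± 1.4, adjusted p = 0.0186, and GCNT3, an enzyme that branches mucin glycans, 4.7 ± 1.29, adjusted p = 0.0113. Those 3 calls were lost in leave-one-out fits. PRSS23 was lost without mare C or M (adjusted p 0.0608 to 0.16), PIGR without mare B, C, M or U (adjusted p 0.0613 to 0.327) and GCNT3 without mare B, C or M (adjusted p 0.0541 to 0.244). In the list of mucins and glycan enzymes GCNT3 was the 1 call among 7 tested genes (median 1.68), and in that of matrix proteases and inhibitors PRSS23 was the 1 call among 15 (median -0.21). GALNT1, which starts mucin glycans, had 1.68 ± 1.13, adjusted p = 0.602 and ST6GAL1, a sialyltransferase, -5.01 ± 1.67, adjusted p = 0.0715. SPINT2, a protease inhibitor, had -1.36 ± 1.1, adjusted p = 0.689 and CTSB, a lysosomal protease, 2.46 ± 1.08, adjusted p = 0.258.

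Genes of antigen presentation and of the response to interferon contributed 4 luminal calls. CD74, the invariant chain that escorts MHC class II molecules, was at 7522, 9343, 4795 and 2019 CPM in luminal and 457, 222, 231 and 312 CPM in glandular libraries (4.14 ± 0.73, adjusted p = 4.23e-06). DRA, an MHC class II chain, was at 240.3, 579, 1939 and 110.1 against 23.2, 35.8, 71 and 50.3 CPM (3.39 ± 1.03, adjusted p = 0.0344), and its call was lost without mare B, C or M (adjusted p 0.198 to 0.496). These were 2 of 10 tested antigen presentation genes (21 listed), of which 8 had a positive estimate (median 1.58), where 1.53% of all tested genes rose. The chaperone CANX had -0.41 ± 0.7, adjusted p = 0.894, B2M, the light chain of MHC class I, 2.33 ± 0.78, adjusted p = 0.0709 and the class I gene EQMHCB2 2.36 ± 0.9, adjusted p = 0.15. Among 8 tested interferon-stimulated genes (38 listed) 2 rose, against the same 1.53%. OAS2, an antiviral sensor of double-stranded RNA, had 5.46 ± 1.44, adjusted p = 0.00761 (378 ± 203 against 14 ± 16.6 CPM), and LGALS3BP, a secreted glycoprotein, 6.82 ± 1.97, adjusted p = 0.0207 (221 ± 165 against 1.39 ± 1.62 CPM). OAS2 was lost without mare C or U (adjusted p 0.0945 to 0.221) and LGALS3BP without mare B, C, M or U (adjusted p 0.0597 to 0.329). The list had 7 positive estimates of 8 and a median of 4.72, with IFI6 at 2.23 ± 1.62, adjusted p = 0.639 and GBP5 at 5.88 ± 1.94, adjusted p = 0.066. CD55, an inhibitor of complement on cell surfaces, was at 1328, 352, 383 and 351 against 2.58, 17.3, 2.22 and 7.94 CPM (6.24 ± 1.24, adjusted p = 7.49e-05; call lost without mare B, adjusted p = 0.0841). It was the 1 call among 6 tested complement genes (median 2.27), of which C1S, a complement protease, had 3.05 ± 1.01, adjusted p = 0.066 and CFI, a complement inhibitor, -1.99 ± 0.98, adjusted p = 0.363. Beside these results stand the T and NK cell sums, 112 to 987 CPM in luminal and 23.6 to 53.5 CPM in glandular libraries, and the overlapping macrophage sums. PTPRC, which all leukocytes express, had 1, 1, 0 and 28 counts in luminal and 0, 21, 5 and 15 in glandular libraries, and the B cell markers MS4A1 and CD79A had none. The part of immune cells in the luminal calls was not tested.

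Genes of motile cilia gave 3 luminal calls. FOXJ1, the transcription factor that drives formation of motile cilia, was at 1267, 396, 34.8 and 750.3 CPM in luminal and 142, 25.1, 4.44 and 5.29 CPM in glandular libraries (4.15 ± 1.11, adjusted p = 0.00899). Each luminal value exceeded that of its own biopsy, but luminal M lay below glandular B. DNAH9 and DNAH5, heavy chains of the dynein arms that power the beat, were at 1104, 552, 29 and 1208 against 25.8, 41.2, 4.44 and 7.94 CPM (4.79 ± 1.12, adjusted p = 0.00186) and at 166, 611, 104 and 727 against 0, 30.5, 11.1 and 2.65 CPM (5.49 ± 1.42, adjusted p = 0.00647). Of 28 listed genes 8 were tested, 3 rose, the other 5 did not pass, and all 8 estimates were positive, with a median of 3.87 (1.53% of all tested genes rose). Counts were found for 25 of the 27 listed genes that have an identifier in the data. Members outside the test did not all lie on the luminal side: TEKT1 was at 0, 3.0, 0 and 34.9 CPM (without ribosomal RNA genes) in luminal and 0, 1.63, 12.9 and 624 CPM in glandular libraries, and CAPS and SPAG16 had counts in 1 glandular library each and none in luminal ones. These 3 were picked after their values were seen. DNAH11, another dynein, had 3.24 ± 1.36, adjusted p = 0.23, TPPP3, a microtubule protein, 3.43 ± 1.21, adjusted p = 0.0947 and TUBB4B, a tubulin, 0.88 ± 1.0, adjusted p = 0.824. In the short list of ciliated cell markers 2 of 3 tested genes rose (FOXJ1 and DNAH5, median 4.15). The summed motile cilia genes reached 6199, 5445, 1725 and 6793 CPM (without ribosomal RNA genes) in luminal and 778, 530.3, 435 and 1187 CPM in glandular libraries, with no overlap, against 204 and 284 CPM in stroma. CFAP210, a protein of the ciliary microtubules, was named by its rank and stood at 325, 648, 1271 and 348 against 2.58, 10.2, 19.96 and 26.5 CPM (5.57 ± 1.15, adjusted p = 0.000204). Further called genes of cilia outside the naming rule, picked after their values were seen, were DNAH10 (5.22 ± 1.34), DNAH12 (4.86 ± 1.2) and SPAG17 (5.43 ± 1.39). The call of FOXJ1 was lost without mare B, C or U (adjusted p 0.157 to 0.221), that of DNAH9 without mare B or U (adjusted p 0.114 to 0.136) and that of DNAH5 without mare B, C or U (adjusted p 0.0948 to 0.221). The number of called list members thus fell from 3 to 0 without mare B or U and to 1 without mare C.

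EMX2, a homeobox factor of the developing reproductive tract, was the 1 call among 15 tested epithelial transcription factors (median 0.79). It was at 331, 481, 517 and 1144 CPM in luminal and 0, 14.9, 11.1 and 2.65 CPM in glandular libraries (6.61 ± 1.24, adjusted p = 1.97e-05). Among the uncalled factors KLF5 had 1.21 ± 0.78, adjusted p = 0.584, FOXO1 2.08 ± 0.94, adjusted p = 0.285 and HOXB6 -2.1 ± 1.14, adjusted p = 0.468. EPAS1, the oxygen-sensitive factor HIF-2 alpha, was at 1543, 1792, 348 and 2642 against 121, 120.1, 82.1 and 13.2 CPM (4.09 ± 0.88, adjusted p = 0.000447; call lost without mare C or U, adjusted p 0.0515 to 0.0728). Where 1.53% of all tested genes rose, 2 of 12 tested genes of hypoxia and glycolysis rose (median 0.80). They were ADM, which encodes the vasodilator peptide adrenomedullin (639 ± 880.2 against 12.3 ± 8.51 CPM; 4.74 ± 1.16, adjusted p = 0.00325; call lost without mare C or M, adjusted p 0.0655 to 0.455), and SLC2A1, the glucose transporter GLUT1 (984, 89.9, 5.8 and 968 against 10.3, 2.99, 42.1 and 0 CPM; 5.32 ± 1.6, adjusted p = 0.0306; call lost without mare B, C or U, adjusted p 0.307 to 0.585). GAPDH, a glycolytic enzyme, had 1.11 ± 0.93, adjusted p = 0.708 and NDRG1, a hypoxia-inducible gene, -4.92 ± 1.73, adjusted p = 0.0947.

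Stress and membrane-binding genes gave a few calls. CRYAB, a small heat shock protein, was at 172, 111, 1242 and 98.5 against 2.58, 2.99, 2.22 and 0 CPM (6.76 ± 1.51, adjusted p = 0.000877), with luminal M far above the others, and the call was lost without mare M (adjusted p = 0.307). It was 1 call among 14 tested heat shock genes, of which 11 had a positive estimate (median 1.14), while HSP90AA1 had 1.8 ± 0.74, adjusted p = 0.204 and HSPA8 1.91 ± 0.73, adjusted p = 0.153. IER3, an early response gene, was the 1 call of 7 tested immediate early genes (median 1.59), of which FOSL2 had 1.51 ± 0.92, adjusted p = 0.554 and ZFP36L1 -0.17 ± 1.04, adjusted p = 0.981. It stood at 2121, 547, 0 and 1715 against 7.74, 7.17, 97.6 and 5.29 CPM (6.19 ± 1.35, adjusted p = 0.000609), and mare M went the other way from mares B, C and U. Its call was lost without mare B, C or U (adjusted p 0.124 to 0.262). ANXA2 and S100A11, calcium-dependent membrane-binding proteins, were 2 of 13 tested annexin and S100 genes (median 0.54), with 3.13 ± 0.83, adjusted p = 0.0083 and 4.43 ± 1.36, adjusted p = 0.0388. Of all tested genes 1.53% rose. ANXA2 was lost without mare B, C or U (adjusted p 0.0594 to 0.243) and S100A11 without mare B, C, M or U (adjusted p 0.102 to 0.344), and ANXA1 had 2.18 ± 0.86, adjusted p = 0.169 and S100A6 2.44 ± 1.27, adjusted p = 0.42.

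COL1A1, a chain of type I collagen made by fibroblasts, was higher in the luminal libraries, at 1825, 827, 3024 and 252 CPM against 114, 40.6, 66.5 and 23.8 CPM (4.32 ± 0.85, adjusted p = 7.49e-05). It was the 1 call among 9 tested stromal fibroblast markers, 6 of them positive, with a median of 1.43. On the scale without ribosomal RNA genes it reached 1964, 940.5, 3841 and 303 CPM in luminal libraries, against 1378 and 1722 CPM in the stroma of mares M and U. The luminal library of mare M thus exceeded the stromal one of the same biopsy. In the same pair COL1A2, the partner chain, was at 2462 CPM in the luminal library and 1492 CPM in stroma, IGFBP7 at 369 and 349 CPM, VIM at 833 and 892 CPM, and DCN, a defining fibroblast gene, at 95.8 and 905 CPM. Other listed markers lay far lower in the luminal library than in stroma. SPARC was at 7.37 and 1650 CPM, DPT at 103 and 1627 CPM and FBLN1 at 14.7 and 742 CPM. These examples were picked after their values were seen. The 23 fibroblast markers together summed to 7785 CPM in the luminal library of mare M and 13114 CPM in its stroma. That stromal library also held 7528 CPM of P19, as given above, so it is not a reference of stroma alone. PDGFRA, another fibroblast gene, had no count in any luminal library and none in the stroma of mare U, and DCN reached 415 CPM in the glandular library of mare U. VIM, the mesenchymal filament vimentin, was at 266, 362, 656 and 452 against 157, 96.2, 118 and 116 CPM with no overlap (1.78 ± 1.01, adjusted p = 0.498), and COL1A2 had 1.43 ± 0.97, adjusted p = 0.603. IGFBP3, a binder of insulin-like growth factors, had 6.05 ± 1.36, adjusted p = 0.0009, with 247, 1615, 29 and 179.6 against 2.58, 10.8, 2.22 and 2.65 CPM, and was lost without mare C (adjusted p = 0.58). On the scale without ribosomal RNA genes it was at 266, 1836, 36.9 and 216 CPM in luminal libraries and at 12.9 and 4.98 CPM in the stroma of mares M and U, below every luminal library. The part of stromal RNA in the values of the collagen genes and VIM was not tested.

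P19, SPP1, F5 and CXCL14, which encode secreted proteins, were lower in the luminal epithelium, whereas SERPINA14 was higher, as given above. P19 encodes uterocalin, which carries lipids and retinol into the horse conceptus. It stood at 59692, 17484, 17207 and 39189 CPM in glandular libraries and at 1793, 1303, 377 and 1457 CPM in luminal ones. Every glandular library exceeded every luminal one, and the fold change was -4.77 ± 0.7, adjusted p = 9.71e-09. SPP1 encodes osteopontin, a secreted phosphoprotein that binds integrins. It was at 1053, 1434, 856 and 1410.2 CPM in glandular and 13, 21.1, 34.8 and 20.3 CPM in luminal libraries (-5.78 ± 0.97, adjusted p = 1.06e-06), and was the 1 call among 16 tested genes of integrins and adhesion (median 0.27), with ITGB1 at 0.41 ± 0.92, adjusted p = 0.922 and LAMA3 at 0.82 ± 0.95, adjusted p = 0.831. F5 encodes coagulation factor V, and it was at 1957, 3223, 2067 and 4360.2 CPM in glandular and 55.2, 44.9, 52.2 and 17.4 CPM in luminal libraries (-6.08 ± 0.86, adjusted p = 2.13e-09). CXCL14, a chemokine, was at 986, 194, 326 and 87.3 against 9.74, 2.64, 5.8 and 2.9 CPM (-5.88 ± 1.44, adjusted p = 0.00325; call lost without mare B or C, adjusted p 0.0613 to 0.258). SCGB1A1, uteroglobin, was at 149.7, 228, 512 and 1016 CPM in glandular and 29.2, 37, 23.2 and 75.3 CPM in luminal libraries without overlap, and it did not pass (-3.27 ± 1.12, adjusted p = 0.0814).

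LRP2 encodes megalin, a large endocytic receptor for lipoproteins and carrier proteins. It stood at 589, 928, 1703 and 1680.0 CPM in glandular and 13, 34.4, 0 and 37.7 CPM in luminal libraries (-5.91 ± 0.99, adjusted p = 7.95e-07), and luminal M had no count of it. Of the 13 tested genes in the gland list (27 listed) 4 fell in the luminal epithelium (P19, LRP2, SPP1 and CXCL14, where 1.73% of all tested genes fell) and 3 rose (SERPINA14, PRSS23 and PIGR), with a median of -0.88. Without mare C 4 of those 7 calls were left. ALDH1A1, which makes retinoic acid, had -2.6 ± 1.2, adjusted p = 0.306 and the gland factor SOX17 -0.88 ± 1.24, adjusted p = 0.877. In the list of uterine secretory proteins 3 of 13 rose (STC1, SERPINA14 and IGFBP3) and 2 fell (P19 and SPP1), with a median of 2.42. CTSB and SCGB1A1, given above, were its most abundant uncalled members. Of all tested genes 1.53% rose and 1.73% fell. FOXA2, the transcription factor that glands need to form in mice, had no count in any of the 8 libraries, which allows up to 2.49 CPM over the luminal and 1.04 CPM over the glandular group (3 counts, counting error only).

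**Figure D3:**
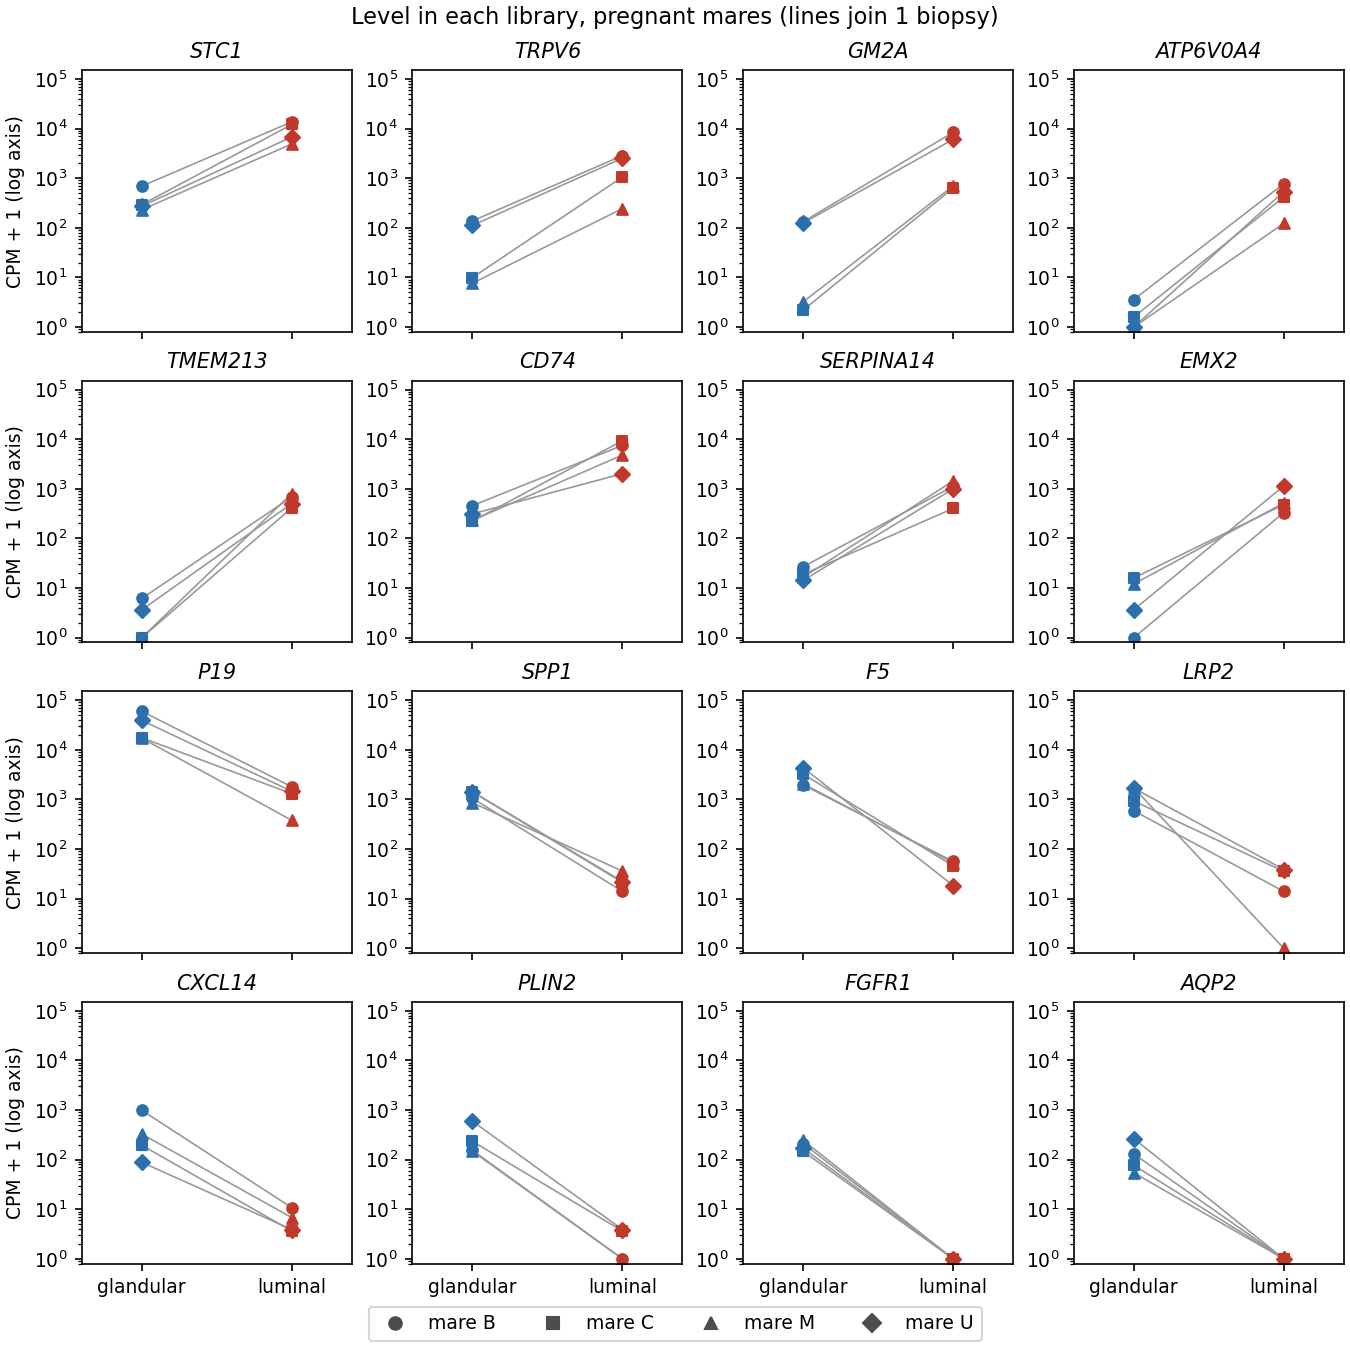
Level of 16 genes in each library (CPM of the TMM-scaled library size plus 1, log axis), glandular in blue and luminal in red, with a line joining the 2 libraries of 1 biopsy and the mare as the symbol. The first 8 genes, from STC1 to EMX2, rise from gland to lumen in all 4 mares, and the last 8, from P19 to AQP2, fall in all 4, with FGFR1 and AQP2 at 0 in every luminal library.

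Of the listed lipid genes 3 were lower in the luminal epithelium. PLIN2, which coats lipid droplets, was at 152, 232, 146 and 593 CPM in glandular and 0, 2.64, 0 and 2.9 CPM in luminal libraries. With 2 luminal counts in all, its ratio of pooled CPM was 154 (95% counting interval 42.4 to 1271) and its fitted fold change -7.44 ± 1.85, adjusted p = 0.00401, and the call was lost without mare C or U (adjusted p 0.0731 to 0.164). LRP8, a lipoprotein receptor related to megalin, was at 354, 504, 446 and 212 against 6.5, 2.64, 5.8 and 116 CPM (-5.18 ± 1.54, adjusted p = 0.028; call lost without mare B, C or M, adjusted p 0.103 to 0.466, and without the mare block, adjusted p = 0.0564). Of 18 tested lipid enzymes and carriers (41 listed) 3 fell (LRP2, PLIN2 and LRP8) and LIPG rose. Of all tested genes 1.73% fell and 1.53% rose. In the lipid list 15 estimates were negative and the median was -2.09. Without mare C 2 of the 4 calls were left. APOD, a lipocalin, had -1.64 ± 1.08, adjusted p = 0.589 and RBP4, the retinol carrier of plasma, 2.54 ± 1.6, adjusted p = 0.569. Transporters differed member by member. SLC12A2, the sodium, potassium and chloride cotransporter NKCC1, was at 1990.3, 2653, 785 and 1095 CPM in glandular and 107, 489, 238 and 113 CPM in luminal libraries (-2.9 ± 0.79, adjusted p = 0.0111; call lost without mare B, C or U, adjusted p 0.0957 to 0.245). It was the 1 call among 7 tested ion transport genes (median 1.63), and KCNK1, a potassium channel, had 1.71 ± 1.13, adjusted p = 0.592 and SCNN1A, a chain of the epithelial sodium channel, 1.63 ± 1.97, adjusted p = 0.838. The amino acid transporters SLC38A1 (-5.51 ± 1.36, adjusted p = 0.00372) and SLC7A8 (-5.79 ± 1.58, adjusted p = 0.0113) fell, and SLC2A1 rose, among 11 tested solute carriers (median -0.90), against the same 1.73% and 1.53%. SLC38A1 was lost without mare C or U (adjusted p 0.0515 to 0.268) and SLC7A8 without mare C, M or U (adjusted p 0.125 to 0.212) and also in the fit without the mare block (adjusted p = 0.112). SLC38A2, a related amino acid transporter, had 0.4 ± 1.19, adjusted p = 0.951 and SLC44A4, a choline transporter, -1.07 ± 1.42, adjusted p = 0.855. SLCO1A2, an organic anion transporter outside that list, was at 475, 993, 559 and 384 against 42.2, 26.4, 11.6 and 5.79 CPM (-5.01 ± 1.14, adjusted p = 0.00117; call lost without mare C, adjusted p = 0.11). SLC36A2, an amino acid transporter picked after its values were seen, went the other way, with 188, 185, 81.3 and 252 CPM in luminal libraries and no glandular count. It was at least 170.2-fold higher in luminal libraries against a floor of 3 counts over the group (adjusted p = 0.00558).

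The 2 water channels that were tested pointed in opposite directions. AQP2 was at 129, 75.9, 53.2 and 265 CPM in glandular libraries and had no luminal count, so it was at least 52.4-fold lower in luminal libraries against the same floor (adjusted p = 0.0433), and its call was lost without mare B, C, M or U (adjusted p 0.0725 to 0.285). AQP1 was at 1471, 50.2, 151 and 568 CPM in luminal and 10.3, 26.3, 39.9 and 5.29 CPM in glandular libraries, with no overlap, and did not pass (4.03 ± 1.32, adjusted p = 0.0617). FGFR1, a receptor of fibroblast growth factors, was at 209, 146, 244 and 169 CPM in glandular libraries and had no luminal count, which makes it at least 77.1-fold lower (adjusted p = 0.00755). The call was lost without mare B, C or U (adjusted p 0.0517 to 0.129). It was the 1 call among 10 tested growth factor receptors and ligands, whose median was -0.71 with FGFR1 at its bound, and the insulin-like growth factor receptor IGF1R had -0.93 ± 0.75, adjusted p = 0.684 and INHBA, an activin chain, -0.48 ± 1.22, adjusted p = 0.937. FGF9, a growth factor, was kept out by the filter, with 182, 425, 1 and 188 counts in luminal and 0, 9, 1 and 2 in glandular libraries.

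The remaining glandular genes named by rank have signalling, structural and metabolic roles. CTTNBP2, which binds the actin regulator cortactin, was at 5207, 3775, 3160.2 and 3101 CPM in glandular and 61.7, 235, 81.3 and 130.4 CPM in luminal libraries (-5.04 ± 0.79, adjusted p = 9.25e-08). PAPSS2, which makes the sulfate donor for glycans and hormones, was at 1002, 658, 1067 and 2125 against 117, 18.5, 0 and 17.4 CPM (-5.74 ± 1.02, adjusted p = 4.27e-06). DPYSL3, a cytoskeletal phosphoprotein, was at 423, 547, 1082 and 1558 against 13, 10.6, 11.6 and 20.3 CPM (-5.85 ± 1.05, adjusted p = 5.9e-06). For these 3 genes each glandular value was above all luminal ones. Stroma held them too, here on the scale without ribosomal RNA genes. In mare M the glandular and stromal values were 3666 and 1368 CPM for CTTNBP2, 1237 and 1314 CPM for PAPSS2, and 1255 and 1099 CPM for DPYSL3. In mare U they were 3605 and 110 CPM, 2470 and 14.9 CPM, and 1812 and 179 CPM. ELMO1, an activator of Rac signalling, had 3 luminal counts and a ratio of 244 (95% counting interval 83.5 to 1187), with a fitted fold change of -7.59 ± 1.4, adjusted p = 1.15e-05. CLIC6, of the chloride intracellular channel family, had -6.26 ± 1.4, adjusted p = 0.000872 (6.08 ± 4.82 against 429.7 ± 136 CPM). EPB41L2, a linker of membrane and cytoskeleton, had -3.96 ± 0.83, adjusted p = 0.000258 (136 ± 105 against 2034 ± 1397 CPM; call lost without mare B, adjusted p = 0.0726). Without mare C 3 further calls were lost. They were PEA15, a regulator of kinase signalling and cell death (-4.77 ± 1.06, adjusted p = 0.000855; adjusted p = 0.0582 without mare C), ATP2A3, a calcium pump of the endoplasmic reticulum (-5.92 ± 1.38, adjusted p = 0.00175; 0.0504 without it), and RHOBTB1 (-5.9 ± 1.4, adjusted p = 0.00234; 0.0761 without it). DPP4, a membrane peptidase picked after its values were seen, was at 1064, 1257, 628 and 1408 against 110.4, 29.1, 52.2 and 368 CPM (-3.51 ± 0.89, adjusted p = 0.00543). Another such peptidase, MME, was at 1306, 389, 1567 and 547 CPM in luminal and 108, 49.6, 184 and 13.2 CPM in glandular libraries (3.68 ± 0.91, adjusted p = 0.00387).

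The machinery of secretion gave 1 call. P4HB, protein disulfide isomerase of the endoplasmic reticulum, was at 1750.3, 1123, 2375 and 2241 CPM in glandular and 383, 97.8, 917 and 229 CPM in luminal libraries (-2.6 ± 0.76, adjusted p = 0.0237). It was lost without mare B, C or U (adjusted p 0.145 to 0.38) and also without the mare block (adjusted p = 0.0513) and with RLE factors (adjusted p = 0.0544). It was 1 of 45 tested genes of the secretory pathway and unfolded protein response, close to the 1.73% of all tested genes that fell. Of the 45, 41 had a negative estimate, and their median was -1.87 against -0.57 for all genes. Without the block the same 45 had 36 negative estimates and a median of -1.02 against 0.06 for all genes, and after thinning 38 of 42 were negative (median -1.74). SEC62, part of the translocation channel, had -0.98 ± 0.76, adjusted p = 0.669 and CALR, the chaperone calreticulin, -1.56 ± 0.82, adjusted p = 0.425. For the 75 tested cytosolic ribosomal protein genes the median was -0.62, near that of all genes, and 1 fell, RPL8 (774, 289, 1107 and 780.5 against 107, 10.6, 11.6 and 8.69 CPM; -5.09 ± 1.1, adjusted p = 0.000498). Ribosomal protein genes have near-identical copies that could share reads, so the RPL8 value is uncertain. RPS6 had -0.12 ± 0.66, adjusted p = 0.977 and RPL4 0.35 ± 0.68, adjusted p = 0.909.

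**Figure D4:**
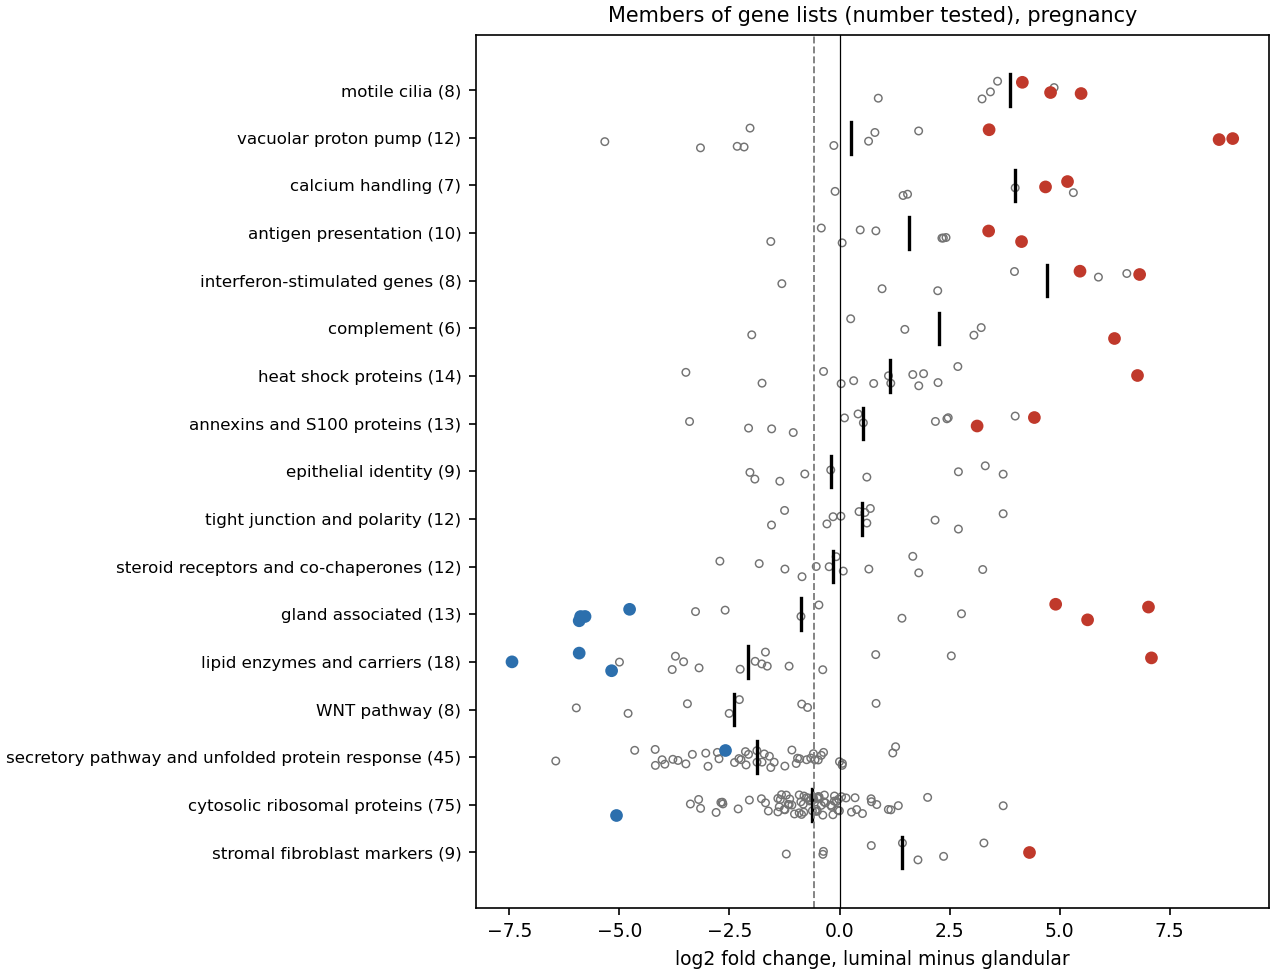
Log2 fold change, luminal minus glandular, of the tested members of 17 gene lists, with called members filled (red higher, blue lower), the list median as a black tick and the median of all tested genes as a dashed line at -0.57. The 8 motile cilia genes that passed the filter are all positive, gland-associated genes have called members on both sides, and most secretory pathway genes lie left of the dashed line with 1 called.

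Other lists had no call by edgeR's quasi-likelihood test. In the epithelial identity list 0 of 9 passed (2 at unadjusted p under 0.05, 2 called by DESeq2, 0 by limma-voom, median -0.20). EPCAM was at 575, 901, 1736 and 310.0 against 1293, 1716, 699 and 1394 CPM (-0.79 ± 0.76, adjusted p = 0.773), and CDH1, E-cadherin, at 1098, 179.7, 401 and 432 against 2.58, 84.2, 118 and 26.5 CPM (3.31 ± 1.19, adjusted p = 0.106), the latter without overlap. SPINT2 had no call either, as given above, and CLDN4, a tight junction protein, had 3.72 ± 1.27, adjusted p = 0.0814. None of 12 tight junction and polarity genes passed (2 at unadjusted p, 1 by DESeq2, 0 by limma-voom, median 0.51), with CLDN8 at -0.15 ± 0.72, adjusted p = 0.972 and PATJ at 2.17 ± 0.96, adjusted p = 0.266, nor did any of 9 keratins and cornified proteins (2, 2 and 0, median -0.20), with the desmosome protein DSP at -0.04 ± 0.73, adjusted p = 0.996. The 31 nuclear genes of oxidative phosphorylation gave 0 calls (1, 4 and 0, median 0.67), with ATP5F1B, a catalytic subunit of ATP synthase, at 0.67 ± 0.98, adjusted p = 0.88 and COX4I1, of cytochrome oxidase, at 0.29 ± 1.25, adjusted p = 0.966. The 8 tested WNT pathway genes gave 0 calls (3, 3 and 0) although 7 were negative, with a median of -2.39. CTNNB1, beta-catenin, had -2.51 ± 1.19, adjusted p = 0.332 and LGR4, a receptor of the pathway, -2.28 ± 1.29, adjusted p = 0.496. The single tested prostaglandin gene, PTGES3, had 1.97 ± 1.41, adjusted p = 0.636 and an unadjusted p above 0.05, and was called by neither DESeq2 nor limma-voom. No proliferation gene passed the filter.

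Steroid receptors and their co-chaperones gave 0 calls of 12 (2 at unadjusted p, 1 by DESeq2, 0 by limma-voom, median -0.16). ESR1, the estrogen receptor alpha, was at 52, 5.29, 11.6 and 209 CPM in luminal and 56.8, 217, 470.1 and 357 CPM in glandular libraries, with overlap (-2.72 ± 1.53, adjusted p = 0.492). PGR, the progesterone receptor, did not pass the filter, with 0, 2, 1 and 0 counts in luminal and 6, 169, 64 and 2 in glandular libraries. NCOR1, a corepressor of nuclear receptors, had 0.67 ± 0.83, adjusted p = 0.845. PTPRC, PGR and FGF9 have no fold change here because too few of their libraries reached the minimum count.

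The gene with the smallest p had no symbol. ID 102149844 stood at 8747, 10746, 4545 and 4244 CPM in luminal and 62, 11.4, 22.2 and 47.6 CPM in glandular libraries (7.73 ± 0.85, adjusted p = 5.31e-16), with no overlap between the groups. In all 15 of the 130 called genes had no symbol beyond an identifier or placeholder, 6 of them higher and 9 lower.

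The cyclic libraries under the same 4 letters asked whether the 2 epithelia differ in the same genes without a conceptus. Of 4600 genes tested there 120 (2.61%) passed. Of the 130 genes called in pregnancy 108 were tested in the cycle, 104 of them with the same sign (the exceptions, picked after their values were seen, were BCAP29, ANXA2, S100A11 and PIP4K2C), and 40 were also called (15 higher and 25 lower in luminal epithelium). The share of equal signs over all genes tested in both states is not given here, so the 104 of 108 have no baseline. Those 40 are 30.8% of the pregnant calls and 33.3% of the cyclic calls, and no gene was called with opposite signs. The median cyclic fold change was 3.39 for the genes called higher in pregnancy and -3.41 for those called lower, against 5.22 and -5.31 in pregnancy, where the calls were made. The cyclic values were 3.89 ± 0.72 for STC1 (adjusted p = 2.6e-05), 5.27 ± 1.1 for TRPV6 (0.000287) and 3.39 ± 0.7 for CD74 (0.000219). On the glandular side they were -6.5 ± 0.78 for SPP1 (3.69e-13), -5.58 ± 0.84 for F5 (6.05e-08) and -3.35 ± 0.54 for P19 (6.1e-07). Among the 30 genes named by rank 25 were tested in the cycle and 18 passed. TMEM213, ATP6V0A4, SERPINA14, CD55 and RAB3B did not pass the cyclic filter. COL1A1 had a cyclic value of 0.98 ± 1.07 (0.835), CFAP210 of 1.68 ± 1.54 (0.785) and RPL8 of -0.47 ± 1.2 (0.948). The cyclic count fell to 15 without mare B and to 14 without mare U, and was 55 without mare C and 192 without mare M.

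Whether the luminal minus glandular difference itself changed with pregnancy was tested as an interaction across the 16 libraries, with each biopsy as a block. The sample titles use the same mare letters in both states, and the test does not pair cyclic and pregnant libraries by letter. Leave-one-out fits over both states left out a letter in both. Of 6884 genes 1 (0.0145%) passed and 381 had an unadjusted p under 0.05 (edgeR). None of the 130 pregnant calls passed. The smallest adjusted p among them was 0.827, and 26 had an unadjusted p under 0.05. The gene that passed was RN18S, whose difference was 3.64 ± 0.35 lower in pregnancy on the log2 scale (adjusted p = 4.46e-22). It was -1.41 ± 0.75 in pregnancy (adjusted p = 0.445) and 2.13 ± 0.42 in the cycle (adjusted p = 0.000105). In pregnancy RN18S stood at 499217, 112969, 3576 and 221541 CPM in luminal and 435801, 142786, 858024 and 469013 CPM in glandular libraries. Leaving out any 1 letter left 1 gene, RN18S. Its log2 difference then ran from -5.18 without letter B to -1.67 without letter M, a range that the SE of 0.35 does not cover. The call of RN18S was lost with DESeq2 (adjusted p = 0.126), with robust dispersions (0.886) and with genes that had a count in every library (0.585). DESeq2 called 78 genes for the interaction and RN18S was not among them. By edgeR, genes called in pregnancy and not in the cycle were therefore not shown to differ between the states. Whether any of the 130 is among the 78 genes of DESeq2 is not given here.

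**Figure D5:**
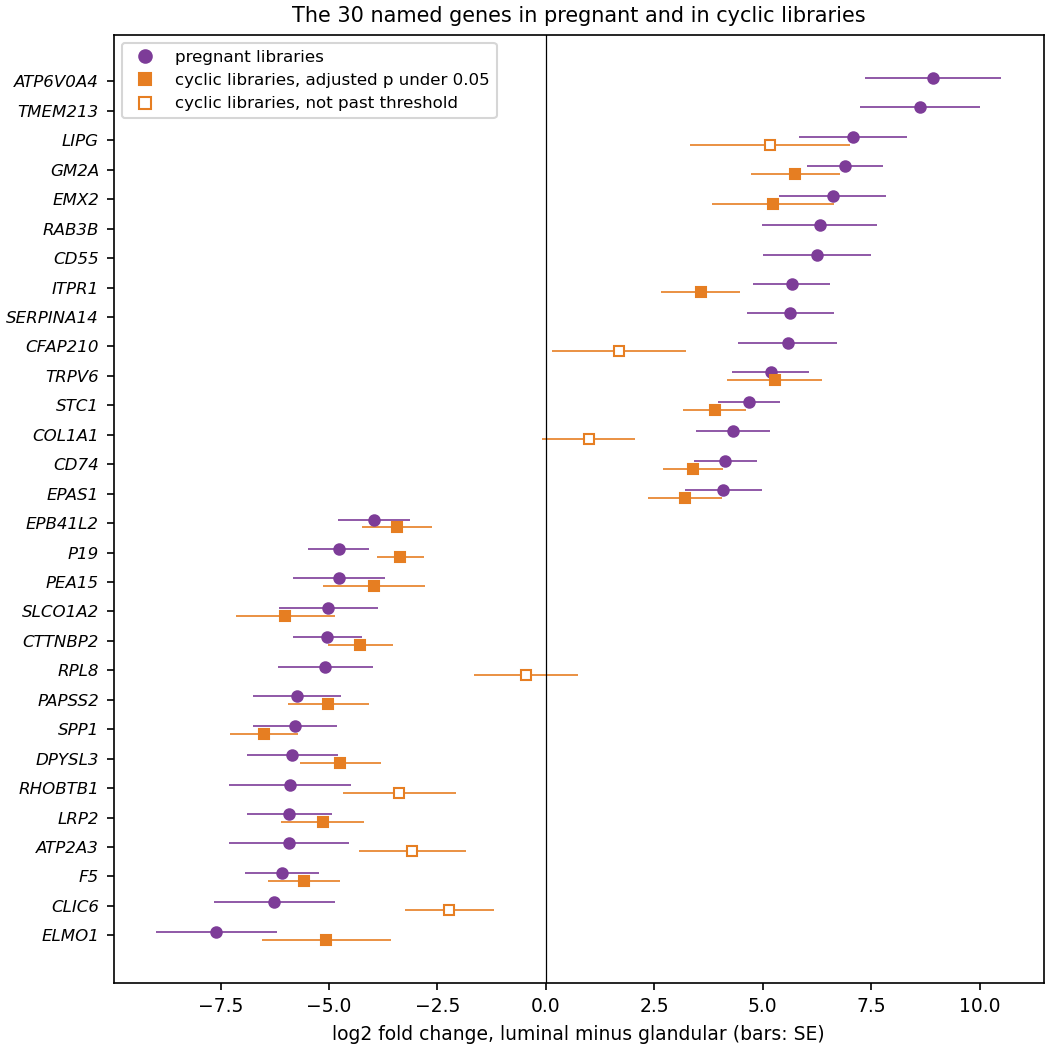
Log2 fold change ± SE, luminal minus glandular, of the 30 genes named by rank, in pregnant (purple circles) and cyclic (orange squares, filled where adjusted p was under 0.05) libraries under the same 4 mare letters. Of the 25 genes tested in both states all keep their sign, 18 squares are filled, and 5 genes have no square because they did not pass the cyclic filter. The share of kept signs over all genes is not given.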

How the data were processed

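RNA-seq libraries from laser-captured luminal and glandular epithelium of 4 mares were compared. The deposited count table holds whole-number read counts per gene identifier, made by the authors with Trimmomatic 0.32.2 and HISAT2 2.0.3 among their tools, per the submitters' processing notes. For the genome build, annotation and counter, no name is given in the sources used here. A deposited signal table from the authors holds the same counts divided by an effective size of each library, and it was used in 1 alternative. Of 24942 identifiers 21420 matched a RefSeq gene table, among them 3867 (97.0%) of the 3988 tested, and 1.83% to 7.70% of a library's counts were on identifiers with no match. Which libraries received extra amplification, and whether duplicate reads were removed before counting, is not stated in the labels.

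Differences were tested with edgeR 4.0.16 in R 4.3.3, by a quasi-likelihood F-test with the mare as a block. Genes were kept by a minimum count of 10 and a minimum total of 15, library sizes were then recomputed and scaled by TMM, and calls are Benjamini-Hochberg adjusted p under 0.05 over all genes tested. Every adjusted p in the text is from edgeR unless another tool is named (DESeq2 1.42.0, or limma 3.58.1 for voom and trend). The SE is the log2 fold change divided by the square root of F, so it rests on the shared estimate of spread. The luminal and glandular library of a letter come from 1 mare, which is where the pairing comes from. The correlations of their deviations from the group means were 0.021, 0.039, -0.061 and -0.004 for mares B, C, M and U, against -0.095 to 0.091 between different mares. Each group is 4 mares, 1 biopsy each. Genes with 0 counts in a group are given as a bound, with 3 counts set against the summed library size of that group, and those with 1 to 3 counts as a ratio with a 95% Clopper-Pearson interval. Both cover counting error only, and amplified reads are not independent molecules.

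Named genes were the 15 with the smallest p in each direction among called genes with a symbol and 1 direction in all 4 mares, all called members of the gene lists with 2 to 4 of the most abundant uncalled members, and a fixed set of marker and uterine genes. The comparison and the lists were chosen with earlier results of these data known. Tests were checked on simulated counts drawn without a mare effect, which cannot show how the paired test behaves where mares differ. Alternatives changed the block, scaling, tool, filter, dispersions, samples in the fit and each mare; thinning to matched depth was added after seeing the data. A few listed genes are not reported here.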

Additional observations from a re-analysis of the deposited data

Results flagged for a closer look

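Of 130 groups of 4 libraries checked for a single library far from the others, 7 (5.38%) were picked out, and chance gives about 1 in 20. Gene levels were checked on the log2 scale of CPM with a prior count of 2, while the values printed here are plain CPM. On the luminal side, CD55 stood at 1330 CPM in mare B against 351 to 383 CPM in the other mares, RPL8 at 107 CPM in mare B against 8.69 to 11.6 CPM, and SLC7A8 at 198 CPM in mare B against 0 to 2.9 CPM. LRP8 stood at 116 CPM in the luminal library of mare U against 2.64 to 6.5 CPM in the others. On the glandular side, ELMO1 stood at 167 CPM in mare U against 632 to 688 CPM, IER3 at 97.6 CPM in mare M against 5.29 to 7.74 CPM, and IGFBP3 at 10.8 CPM in mare C against 2.22 to 2.65 CPM. None of the 7 was the luminal library of mare M, which had the lowest total count. That holds for the log2 scale used. On plain CPM this library could stand far apart, as for CRYAB at 1242 CPM against 98.5 to 172 CPM in the other luminal libraries.

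The luminal minus glandular difference of RN18S was -3.64 on the log2 scale in pregnancy relative to the cycle, by the interaction test given in the report. Its value ran from -5.18 without letter B to -1.67 without letter M, and it passed in all 4 of these fits but not with DESeq2, robust dispersions or genes counted in every library.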

How the results depend on the processing

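The number of genes differing in pregnancy was 130 (61 higher, 69 lower in luminal epithelium). DESeq2 gave 615 (230 and 385), edgeR's likelihood ratio test 278 (106 and 172), no filter on low counts 76 (32 and 44), limma-voom 7 (5 and 2) and limma-trend on the deposited signal 3 (2 and 1). Leaving out each mare in turn gave 39 to 122 genes (24 to 66 higher, 15 to 56 lower), the lowest without mare C. The fit without the mare block gave 167 genes, 121 of them among the 130, and of the named calls it ended those of SLC7A8, P4HB and LRP8. The remaining alternatives, RLE factors, TMMwsp factors, robust dispersions, no ribosomal RNA genes, a count in every library, the 16-library fit and thinning, gave 113 to 153 genes. Of 56 named calls all were kept with DESeq2, the likelihood ratio test, TMMwsp factors, no ribosomal RNA genes and thinning, 40 with no filter, 37, 27, 44 and 37 without mares B, C, M and U, and 3 with limma-voom (CD74, P19 and STC1). RLE factors and robust dispersions each kept 55, the 16-library fit 51, and limma-trend 2 (P19 and STC1). The 16-library fit ended the calls of LGALS3BP, SLC2A1, DRA, S100A11 and AQP2. With a count in every library 36 could be tested, and all 36 were kept. The cyclic count was 120, with 419 by DESeq2, 171 without the block and 14 to 192 over the leave-one-out fits. The interaction gave 1 gene, 78 by DESeq2 and 0 with robust dispersions (384 at unadjusted p under 0.05) or with genes counted in every library (134), and 1 in each leave-one-out fit. RN18S turned from -1.41 to 0.034 with limma-voom, and its adjusted p ran from 0.888 with robust dispersions to 1.46e-56 with no filter. The cause of these changes was not tested. With totals of 136259 to 440188 counts in luminal libraries, most genes of the table could not be tested, and a gene missing from the calls is not shown to be equal in both epithelia.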
